A study of Mus musculus with 4 samples.

Results

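The zinc finger factor MIZ-1 has been described as a direct regulator of a number of genes in earlier work. Described here are 5 genes chosen as such targets or their paralogs, out of 41214 genes in the count table: *Rpl22*, *Rpl22l1*, *Kdm8*, *Pex13* and *Vamp4*. They were found by matching Ensembl identifiers to gene symbols of the GENCODE annotation of GRCm38 (mm10). The rule uses no measured value, but the 5 genes were proposed with earlier results of these data known. All 5 had enough counts to be tested, as did 14554 genes in all. Binding of MIZ-1 was not measured in the counts, so the word target stands for prior knowledge only, and *Rpl22l1* is listed as the paralog of *Rpl22*.

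RNA-seq was made from unstimulated B220+ cells, a fraction of splenocytes held by an antibody to a surface antigen of B cells, from young adult C57BL/6 mice. The MIZ-1WT group holds 2 libraries labelled WT. The MIZ-1DPOZ group holds 2 libraries labelled Miz-1 deltaPOZ, from mice in which Cre under the Mb1 (*Cd79a*) promoter, active from early B cell stages, removes the floxed POZ domain of MIZ-1. In this model the zinc fingers that bind DNA are kept, other cell types of the fraction keep the full gene, and the labels do not say whether the MIZ-1WT mice carried Cre.

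MIZ-1, encoded by *Zbtb17*, binds DNA near the start sites of its target genes and needs its POZ domain to pair with itself and to recruit coactivators. When it is joined by MYC or by other partners, it can turn from an activator into a repressor. RPL22 is a protein of the large ribosomal subunit that also binds selected mRNAs and is known for its role in lymphocyte development, and RPL22L1 is its close relative, which can take its place in the ribosome. RPL22 is known to bind the *Rpl22l1* transcript and to hold its level down. KDM8, also named JMJD5, is an oxygenase of the JmjC family, PEX13 is part of the docking complex that brings enzymes into peroxisomes, and VAMP4 is a SNARE of vesicles that travel between endosomes and the trans-Golgi network.

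Stretches before the start sites of *Rpl22* and *Vamp4* are shown because these 2 genes fell together in the comparison that follows, and short sites of the other members are shown because each holds one of the motifs searched. All are RefSeq sequence of GRCm38.p6, read 5′ to 3′ on the strand of the gene, and capitals mark the motif.
Rpl22, chr4:152325476-152325725, plus strand, 250 bases up to the start: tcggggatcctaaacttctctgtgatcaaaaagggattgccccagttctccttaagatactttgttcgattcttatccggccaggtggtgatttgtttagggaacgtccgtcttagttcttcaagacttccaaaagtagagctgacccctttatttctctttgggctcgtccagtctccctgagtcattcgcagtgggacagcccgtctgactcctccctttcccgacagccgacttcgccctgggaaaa
Vamp4, chr1:162570265-162570514, plus strand, 250 bases up to the start, E-box in capitals: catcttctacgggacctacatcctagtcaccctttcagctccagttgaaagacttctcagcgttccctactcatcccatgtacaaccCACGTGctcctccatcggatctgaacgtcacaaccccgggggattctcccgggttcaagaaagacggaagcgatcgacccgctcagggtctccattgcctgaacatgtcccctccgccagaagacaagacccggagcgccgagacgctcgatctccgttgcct
Kdm8, chr7:125444616-125444645, plus strand, core of a MIZ-1 motif in capitals: gcggggcctggcATCGATtgctccgcgttc
Rpl22l1, chr3:28805466-28805495, plus strand, TATA box letters on both strands in capitals: gcagcacgttTTTATATAAAagcgtgcgtg
Pex13, chr11:23665948-23665977, minus strand, CRE in capitals: acgccttggccTGACGTCAggcgtgggcgg

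Promoter windows of 300 bases, with 250 bases before and 50 bases after the RefSeq start, were matched to all 5 members, and *Rpl22* and *Vamp4* have 2 windows each, which gives 7. The letters ATCGGTAA and ATCGGT, the core of a motif described for MIZ-1, were in none of the 7 windows on either strand, and were in 0.103% and 2.33% of all 32851 windows. The letters ATCGAT, which the *Kdm8* label above calls the core of a MIZ-1 motif, are related to these letters but not the same. They occurred in the *Kdm8* window alone, beginning 8 bases after the RefSeq start, and in 0.925% of all windows. The E-box CACGTG, the site of MYC and MAX, lay 163 bases before the start of *Vamp4* and was found in 7.15% of all windows. TATAAA was in the *Rpl22l1* window at 32 and 28 bases before the start, in overlapping matches, and in the more distant *Rpl22* window, as in 13.6% of all windows. The *Pex13* window held TGACGTCA, the site of CREB and ATF factors, 83 bases before its start, which 1.79% of all windows share. Distances hold for RefSeq starts only. The gene coordinates given below are of GENCODE, whose starts differ for *Rpl22*, *Rpl22l1*, *Kdm8* and *Pex13*. *Pex13*, on the minus strand, starts at 23665883 in RefSeq and at 23665959 in GENCODE, and *Rpl22l1* at 28805508 and 28805436. These motifs were chosen with the windows in view, and a match describes letters and not binding.

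Each library held between 43026814 and 46387209 counts on genes. *Zbtb17* had 47.8 and 46.3 CPM in MIZ-1WT and 37.3 and 38.0 in MIZ-1DPOZ, where CPM stands for counts scaled to a common library total with TMM; its counts cover all exons and do not show the loss of the POZ domain. Pan-B cell markers summed to between 9460 and 11763 CPM per library, and 9 of 11 were lower in MIZ-1DPOZ (median log2 fold change -0.27). All 16 macrophage markers were higher, and their summed level was 982 and 1307 CPM in MIZ-1WT against 5843 and 3655 CPM in MIZ-1DPOZ. Marginal zone B cell markers were higher for 8 of 8 and plasma cell markers for 6 of 7, and follicular B cell markers were lower for 3 of 5 tested. *Xist* was at 1.12 and 1.43 CPM in MIZ-1WT and at 801 and 930 CPM in MIZ-1DPOZ, and the Y-linked gene *Ddx3y* at 363 and 354 against 14.3 and 14.2 CPM. The labels give no sex, but these genes split the libraries fully by genotype, with *Ddx3y* high in MIZ-1WT and *Xist* high in MIZ-1DPOZ. Sex and genotype therefore cannot be told apart in any value that follows. No member lies on a sex chromosome, and a part of sex in the members' levels was not tested.

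The comparison asks how the level of each member differs when the POZ domain of MIZ-1 is lost in B cells. All 5 members passed an adjusted p of 0.05 (quasi-likelihood test of edgeR, Benjamini-Hochberg over all genes tested), where 40.0% of all genes tested passed. *Rpl22*, *Vamp4* and *Pex13* were lower in MIZ-1DPOZ, as were 18.9% of all genes, and *Kdm8* and *Rpl22l1* were higher, as were 21.1%. These shares rest on the scaling and the libraries: with libraries scaled to pan-B cell genes 7388 genes were higher and 468 lower, and without MIZ-1WT replicate 1 or 2 the genes that passed in either direction fell from 5822 to 2222 or 2843. At a limit of 0.6 on the log2 scale with an unadjusted p under 0.05, a reading of the study's limits, whose text prints the sign of the p limit as above and does not say whether this p is adjusted, 4 of 5 members passed, all but *Pex13*, where 20.3% of all genes did. In none of the 5 did the MIZ-1DPOZ libraries overlap the MIZ-1WT libraries, which held for 74.8% of all genes. The median log2 fold change of all genes tested was -0.01, with quartiles at -0.23 and 0.33. In bulk RNA, fewer cells of a type and less RNA per cell cannot be told apart.

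**Figure D1:**
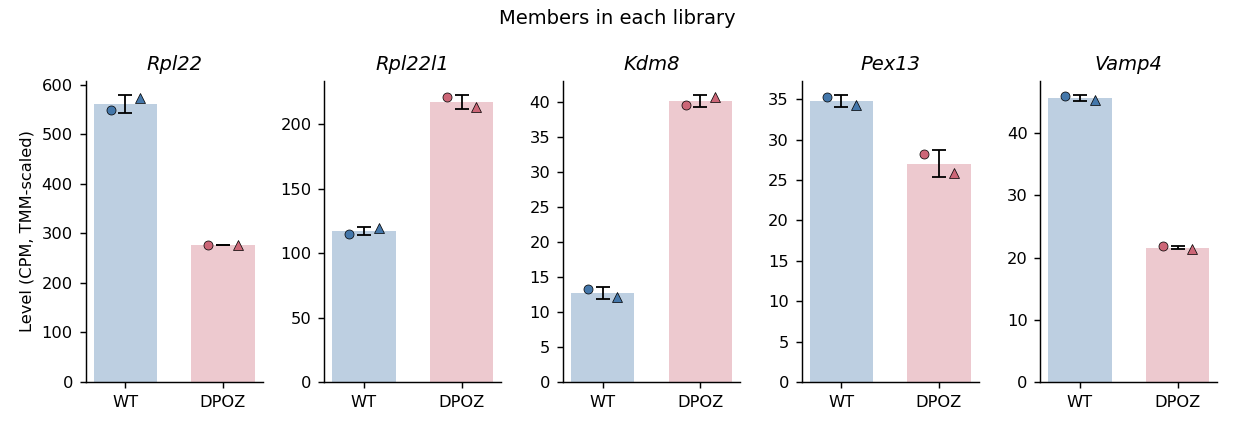
Level of each member (CPM, TMM-scaled, y axis from 0, one panel per gene) in MIZ-1WT (WT, blue) and MIZ-1DPOZ (DPOZ, red). Bars are means, error bars are the SD of 2 libraries, circles are replicate 1 and triangles replicate 2. The groups do not overlap for any member, with *Kdm8* going from 13.3 and 12.2 CPM to 39.6 and 40.8 CPM.

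*Rpl22* (ENSMUSG00000028936, protein coding) lies on chromosome 4 from 152325742 to 152334071 on the plus strand. It had 23900 and 24089 counts in the MIZ-1WT replicates and 13180 and 12126 in the MIZ-1DPOZ replicates. The levels were 548 and 573 CPM in MIZ-1WT and 277 and 276 CPM in MIZ-1DPOZ. Both MIZ-1DPOZ libraries thus lay close to each other and far under both MIZ-1WT libraries. The mean went from 560.5 ± 17.9 CPM (SD, n = 2) to 276.6 ± 0.451 CPM (SD, n = 2), a log2 fold change of -1.02 (standard error 0.05, 95% interval -1.14 to -0.90, edgeR adjusted p = 0.000732). A change of this size or larger, in either direction, was found for 13% of all genes tested. *Rpl22-ps1*, a processed pseudogene copy on the X chromosome, had 40 and 47 counts in MIZ-1WT and 22 and 19 in MIZ-1DPOZ. Its counts are few beside those of the parent gene, but reads that match both copies equally would be in neither count, so the level of *Rpl22* carries that uncertainty.

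*Rpl22l1* (ENSMUSG00000039221, protein coding), the paralog, lies on chromosome 3 from 28805436 to 28807424 on the plus strand. Its counts were 5021 and 5018 in MIZ-1WT and 10518 and 9382 in MIZ-1DPOZ. The levels were 115 and 119 CPM in MIZ-1WT and 221 and 214 CPM in MIZ-1DPOZ. Unlike *Rpl22*, it was higher in both MIZ-1DPOZ libraries. From 117.3 ± 3.03 CPM (SD, n = 2) to 217.4 ± 5.11 CPM (SD, n = 2) the log2 fold change was 0.89 (standard error 0.05, 95% interval 0.77 to 1.01, edgeR adjusted p = 0.000739). The antisense gene *Gm33051* overlaps its exons on the opposite strand, and the strand setting of the counting is not given in the sources used here, so reads in the shared part, at the end of *Rpl22l1* from 28807205 to 28807424, are of uncertain origin.

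Because the 2 paralogs moved in opposite directions, their ratio was taken within each library, where no scaling between libraries enters. *Rpl22l1* had 0.210 and 0.208 counts for each count of *Rpl22* in the MIZ-1WT libraries and 0.798 and 0.774 in the MIZ-1DPOZ libraries. The ratio was 3.76-fold higher in MIZ-1DPOZ, a difference of 1.91 on the log2 scale between group means of -2.26 ± 0.01 (SD, n = 2) and -0.35 ± 0.03 (SD, n = 2). The difference exceeds the spread between replicates, but an exact permutation test over 6 assignments of the libraries (two-sided) gave p = 0.333, the smallest value that 2 against 2 allows. Leaving out any library kept the difference between 1.89 and 1.93.

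Which paralog was the more abundant depended on the length used. Divided by the union of all exons (2911 bases for *Rpl22* and 1989 for *Rpl22l1*), the level per length of *Rpl22* was 3.25 and 3.28 times that of *Rpl22l1* in the MIZ-1WT libraries and 0.856 and 0.883 times in the MIZ-1DPOZ libraries. With the length of the principal transcript (2051 and 552 bases), the ratios were 1.28 and 1.29 in MIZ-1WT and 0.337 and 0.348 in MIZ-1DPOZ. With the coding length (384 and 366 bases) they were 4.54 and 4.58 and then 1.19 and 1.23, so that *Rpl22* stayed the more abundant in MIZ-1DPOZ. *Rpl22* was above *Rpl22l1* in MIZ-1WT with each of these lengths, whereas the order in MIZ-1DPOZ turned with the choice. The sum of both levels per length is given in RPKM, CPM divided by the length in kilobases. With all exons it went from 246 and 257 RPKM in MIZ-1WT to 206 and 202 RPKM in MIZ-1DPOZ. With the coding length it went from 1741 and 1819 RPKM to 1325 and 1304 RPKM. With the principal transcript it rose, from 476 and 496 RPKM to 535 and 522 RPKM, so no direction is given for the sum.

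**Figure D2:**
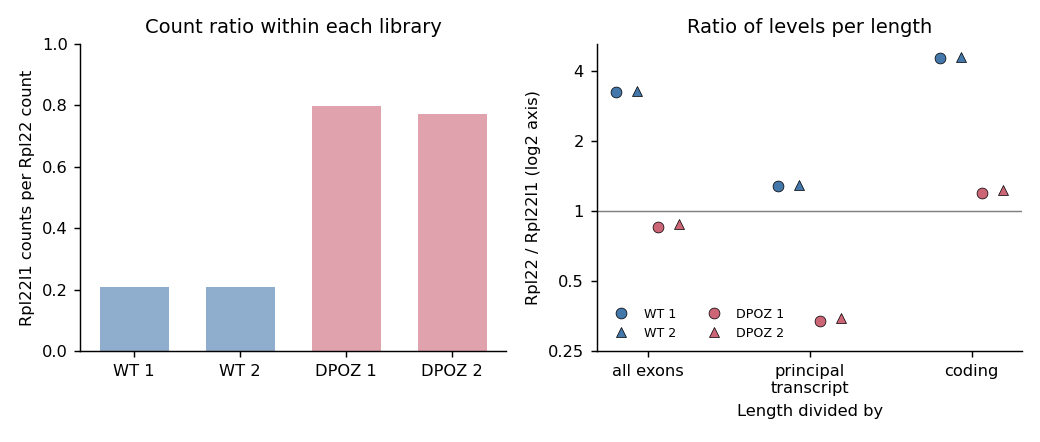
Left, counts of *Rpl22l1* for each count of *Rpl22* in each of the 4 libraries (y axis from 0). Right, the ratio of the level per length of *Rpl22* to that of *Rpl22l1* (log2 y axis, line at 1) for 3 choices of length, blue for MIZ-1WT and red for MIZ-1DPOZ, circles for replicate 1 and triangles for replicate 2; the MIZ-1DPOZ points lie under 1 with all exons and with the principal transcript and above 1 with the coding length.

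The other genes of the cytosolic ribosome give the setting of *Rpl22*. Of 78 such genes tested, 27 were higher in MIZ-1DPOZ, none was lower and 51 did not pass, with a median log2 fold change of 0.13 against -0.01 over all genes and a range from -0.44 to 0.58. The share that passed was 34.6%, all of it higher, against 21.1% of all genes tested that were higher and 40.0% that passed in either direction. *Rplp0*, a stalk protein of the large subunit, had the strongest call, at 1345 ± 24.3 and 2015 ± 25.2 CPM (SD, n = 2 each; log2 fold change 0.58, standard error 0.05, edgeR adjusted p = 0.00171). *Rpl3*, of the peptidyl transferase region, and *Rplp2*, another stalk protein, were higher by 0.35 and 0.34 on the log2 scale. The value of *Rpl22*, -1.02, lay outside the range of the list. Only 3 genes of the list passed without MIZ-1WT replicate 1 and 6 without MIZ-1WT replicate 2, and 74 passed, all higher, when libraries were scaled to pan-B cell genes. Many ribosomal protein genes have processed pseudogenes, so their counts of uniquely placed reads are uncertain.

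*Kdm8* (ENSMUSG00000030752, protein coding) lies on chromosome 7 from 125444676 to 125462269 on the plus strand and showed the largest change of the 5 members. Its counts were 582 and 511 in MIZ-1WT and 1885 and 1789 in MIZ-1DPOZ. The levels were 13.3 and 12.2 CPM in MIZ-1WT and 39.6 and 40.8 CPM in MIZ-1DPOZ. Each MIZ-1DPOZ library was above both MIZ-1WT libraries by a gap far wider than that between replicates. The mean rose from 12.8 ± 0.837 CPM (SD, n = 2) to 40.2 ± 0.817 CPM (SD, n = 2), which is 3.15-fold (95% interval 2.76 to 3.59) or 1.66 on the log2 scale (standard error 0.08, edgeR adjusted p = 0.000732). A change of at least this size was found for 6.12% of all genes tested.

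With TMM scaling, none of the other listed genes of oxygenases with a JmjC domain passed as higher with *Kdm8*. The list leaves out the family's genes on the sex chromosomes, *Kdm5c*, *Kdm6a*, *Phf8*, *Kdm5d* and *Uty*. Of 22 autosomal genes of this family, none was higher and 12 (54.5%) were lower in MIZ-1DPOZ, where 18.9% of all genes were lower, with a median log2 fold change of -0.21 and a range from -0.74 to 0.06. *Kdm3a* and *Kdm7a*, demethylases of histone H3 at lysine 9, fell by 0.45 and 0.60 on the log2 scale, with edgeR adjusted p-values of 0.00371 and 0.00514. *Kdm5b*, a demethylase of histone H3 at lysine 4, was at 85.9 ± 2.27 CPM in MIZ-1WT and 64.4 ± 3.01 CPM in MIZ-1DPOZ (SD, n = 2 each; log2 fold change -0.42, adjusted p = 0.00427). The direction of this family rested on the scaling: with libraries scaled to pan-B cell genes, 2 members were higher and 1 was lower, and the median turned to 0.14. *Kdm8* itself was higher by 2.01 under that scaling. The number of calls in the family fell to 4 and 5 when MIZ-1WT replicate 1 or 2 was left out, to 7 without MIZ-1DPOZ replicate 1, and to 7 in a fit with the replicate number as a block.

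*Vamp4* (ENSMUSG00000026696, protein coding) lies on chromosome 1 from 162570515 to 162599084 on the plus strand. Counts were 2005 and 1904 in MIZ-1WT and 1038 and 940 in MIZ-1DPOZ. The levels were 45.96 and 45.3 CPM in MIZ-1WT and 21.8 and 21.4 CPM in MIZ-1DPOZ. Replicates were within 1 CPM of each other in both groups, and the groups were far apart. The mean fell from 45.6 ± 0.468 CPM (SD, n = 2) to 21.6 ± 0.277 CPM (SD, n = 2), with a log2 fold change of -1.08 (standard error 0.06, 95% interval -1.22 to -0.93, edgeR adjusted p = 0.000739). Changes at least as large were found for 12.1% of all genes tested.

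Among the other vesicle SNAREs, 16 of 18 listed genes were tested, 2 were higher, 4 were lower and 10 did not pass, with a median log2 fold change of 0.03. The share that passed, 37.5%, was near the 40.0% of all genes. *Stx6* and *Stx16*, syntaxins that pair with VAMP4, did not pass, at 45.2 ± 0.745 and 48.3 ± 0.096 CPM and at 122 ± 5.17 and 110 ± 6.54 CPM (SD, n = 2, MIZ-1WT then MIZ-1DPOZ). The remaining partner of that complex, *Vti1a*, rose by 0.58 on the log2 scale (edgeR adjusted p = 0.00309), from 17.8 ± 0.457 to 26.6 ± 0.794 CPM. *Vamp5* was higher by 0.61, and the VAMPs of exocytosis *Vamp1* and *Vamp2* were lower, with log2 fold changes of -0.46 and -0.50. *Snap29* was at -0.26 (edgeR adjusted p = 0.0101) but at 0.10 with libraries scaled to pan-B cell genes, a scaling under which 10 SNAREs were higher and none was lower. Without MIZ-1WT replicate 1, 2 of the SNAREs passed, and the same number passed without MIZ-1WT replicate 2. The range of the list, from -0.50 to 0.61, did not reach the value of *Vamp4*.

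*Pex13* (ENSMUSG00000020283, protein coding) lies on chromosome 11 from 23646479 to 23665959 on the minus strand and changed least. Counts were 1539 and 1440 in MIZ-1WT and 1342 and 1134 in MIZ-1DPOZ. The levels were 35.3 and 34.3 CPM in MIZ-1WT and 28.2 and 25.8 CPM in MIZ-1DPOZ. The MIZ-1DPOZ libraries were the lower ones, with a gap to MIZ-1WT of a few CPM. The mean went from 34.8 ± 0.721 CPM (SD, n = 2) to 27.0 ± 1.67 CPM (SD, n = 2), a log2 fold change of -0.36 (standard error 0.07, 95% interval -0.54 to -0.19, edgeR adjusted p = 0.0121). A change of this size or larger was found for 38.4% of all genes. The call was lost without MIZ-1WT replicate 1 (-0.34, adjusted p = 0.0831), without MIZ-1WT replicate 2 (-0.39, adjusted p = 0.0587) and with libraries scaled to pan-B cell genes (-0.0076, adjusted p = 0.958). *Pus10*, a pseudouridine synthase gene read in the opposite direction, shares exon sequence with *Pex13*. It was at 44.3 ± 1.43 CPM in MIZ-1WT and 50.4 ± 0.824 CPM in MIZ-1DPOZ (SD, n = 2 each). Unlike *Pex13*, *Pus10* thus passed as higher (log2 fold change 0.18, edgeR adjusted p = 0.0460). The 2 genes overlap from 23665674 to 23665959, at the start of *Pex13*, so reads in the shared part are of uncertain origin.

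Of 15 other peroxins tested, the proteins that build peroxisomes, 4 were higher, 3 were lower and 8 did not pass, with a median log2 fold change of 0.04. The share that passed, 46.7%, was near the 40.0% of all genes. *Pex10*, a ubiquitin ligase of the import machinery, and *Pex26*, a peroxisomal membrane protein, were lower by the same test, with log2 fold changes of -0.60 and -0.39, and neither passed with pan-B cell scaling. *Pex11g*, of peroxisome division, *Pex2*, another ubiquitin ligase, and *Pex7*, an import receptor, were higher by 0.73, 0.28 and 0.29. *Pex14*, the partner of PEX13 in docking, was at 28.0 ± 0.552 and 28.8 ± 1.22 CPM, and *Pex5*, the receptor that docks there, at 43.8 ± 1.06 and 42.6 ± 1.12 CPM; neither passed the test, and both were named after their values were seen. Without MIZ-1WT replicate 1 a single peroxin passed, 3 passed without MIZ-1WT replicate 2, and with pan-B cell scaling 9 were higher and 1 was lower.

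**Figure D3:**
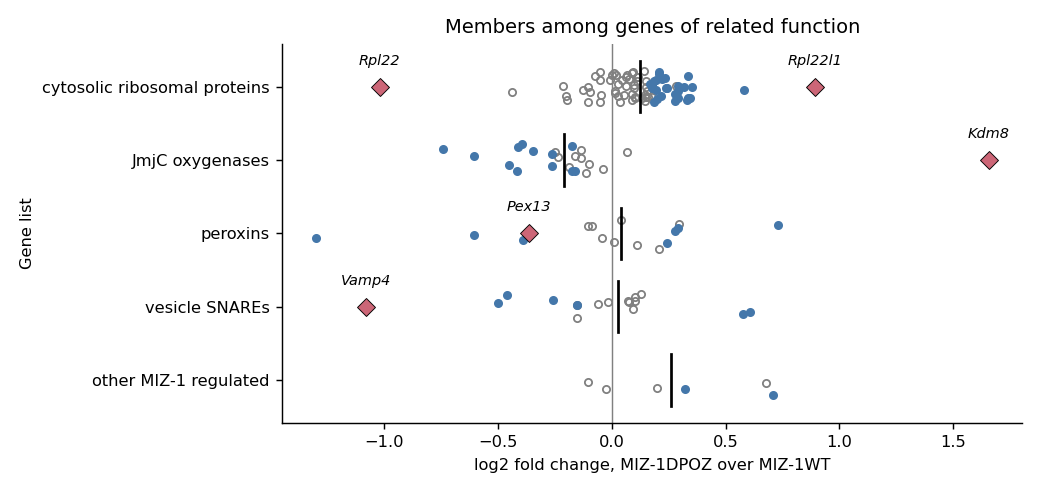
Log2 fold change of MIZ-1DPOZ over MIZ-1WT (x axis) for the members (red diamonds, named) and for the tested genes of 5 lists (one row per list). Filled points passed an adjusted p of 0.05, open points did not, black bars are list medians, and the height of a point within its row is spread only to part the points. *Rpl22*, *Rpl22l1*, *Kdm8* and *Vamp4* lie outside the range of their lists and *Pex13* lies inside its own.

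Of 9 other genes described as regulated by MIZ-1, 6 were tested. *Bcl2*, which protects cells from apoptosis, rose from 164 ± 0.748 to 204 ± 2.99 CPM (SD, n = 2 each; log2 fold change 0.32, edgeR adjusted p = 0.00380). *Socs1*, an inhibitor of cytokine signaling, rose from 3.12 ± 0.545 to 5.10 ± 0.605 CPM (log2 fold change 0.71, adjusted p = 0.0312). The other 4 did not pass: *Tmbim4*, a membrane protein of cell survival, was at 31.0 ± 0.898 and 30.5 ± 1.47 CPM, and *Ndrg2*, *Cdkn1a* and *Cdkn2b*, the last 2 being cell cycle inhibitors, had at most 21 counts in any library. *Wif1* and *Pcdh10* were under the count limit, with at most 1 count in any library, so a difference was not detectable at this depth. With pan-B cell scaling *Tmbim4* passed as higher, at 0.33, and a single gene passed without MIZ-1WT replicate 1, without MIZ-1WT replicate 2 or without MIZ-1DPOZ replicate 1.

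By level per length over all exons, the order of the members in MIZ-1WT was *Rpl22* at 193 ± 6.13 RPKM, *Rpl22l1* at 58.9 ± 1.52, *Vamp4* at 9.996 ± 0.103, *Pex13* at 7.49 ± 0.155 and *Kdm8* at 5.34 ± 0.350 RPKM (SD, n = 2 each). In MIZ-1DPOZ it was *Rpl22l1* at 109 ± 2.57 RPKM, *Rpl22* at 95.02 ± 0.155, *Kdm8* at 16.8 ± 0.342, *Pex13* at 5.82 ± 0.359 and *Vamp4* at 4.74 ± 0.0607 RPKM. No neighbours in either order overlapped over the 2 libraries. *Kdm8* thus stood last in MIZ-1WT and in the middle in MIZ-1DPOZ, while *Vamp4* went from the middle to last. As the paralog pair shows, such an order between genes depends on the lengths used.

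Replicates of the members were close in both groups. The largest difference between replicates was 0.134 on the log2 CPM scale in MIZ-1WT, for *Kdm8*, and 0.126 in MIZ-1DPOZ, for *Pex13*. Macrophage markers were higher in MIZ-1DPOZ replicate 1 than in replicate 2 by a median of 0.67 on that scale. Between the same libraries *Pex13*, *Rpl22l1*, *Vamp4* and *Rpl22* differed by 0.126, 0.048, 0.026 and 0.0033 in the same direction and *Kdm8* by -0.041. Whether the shift in macrophage, marginal zone and plasma cell markers between the genotypes has a part in the members' differences was not tested. T cell markers summed to between 56.5 and 76.1 CPM, neutrophil markers to between 4.16 and 16.0 CPM and erythroid markers to between 40.2 and 117 CPM per library, with *Elane*, *Mpo* and *Ly6g* at no more than 4 counts in any library.

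Scaling the libraries to 11 pan-B cell genes, which asks for the level relative to B cell transcripts, moved the median of all genes from -0.01 to 0.35 on the log2 scale. *Rpl22* was then at -0.67, *Vamp4* at -0.72, *Rpl22l1* at 1.25 and *Kdm8* at 2.01, each still past the threshold and in the same direction. A change of scaling adds the same shift to every gene, so the distances between the members stay as they were. *Pex13* was near 0 relative to pan-B cell genes, whose own median change with TMM was -0.27.

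**Figure D4:**
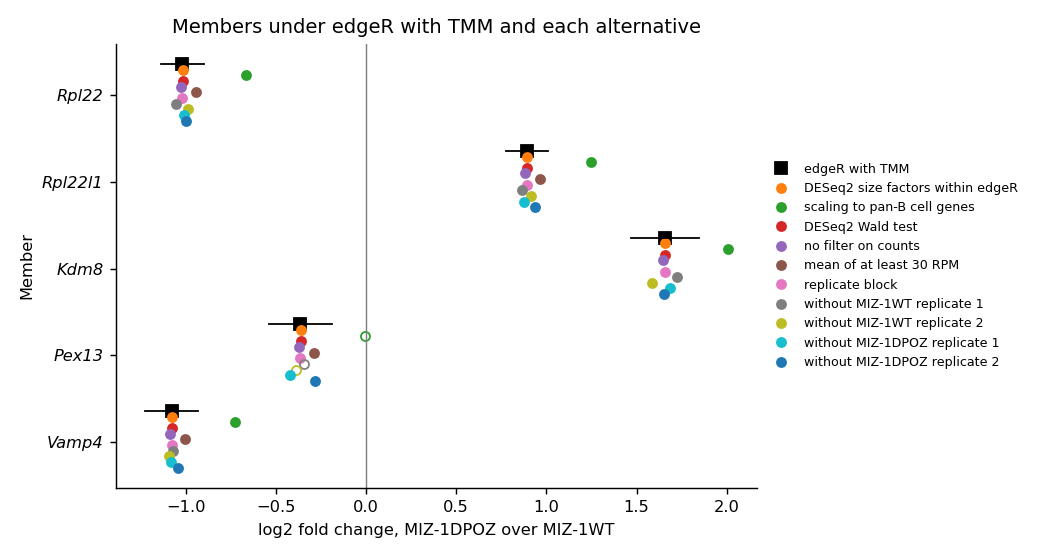
Log2 fold change of MIZ-1DPOZ over MIZ-1WT (x axis) of each member (rows) from edgeR with TMM (black squares, with the 95% interval as a line) and from each alternative (coloured circles). Filled symbols passed an adjusted p of 0.05 and open ones did not; the open symbols belong to *Pex13* alone, and *Kdm8* has no value where genes needed a mean of 30 RPM, reads scaled without TMM.

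The genes whose pattern over the 4 libraries was most like that of each member were sought among 12282 protein-coding genes, by the Euclidean distance of log2 CPM centred on each gene's mean. *Vamp4* was nearest to *Sorl1*, a sorting receptor of endosomes, at a distance of 0.0408 (1239 to 573 CPM), and next to *Rpl22*, at 0.0856. *Rpl22* was nearest to *Tnfrsf12a* (0.0409; 2.59 to 1.29 CPM) and *Sorcs2* (0.0567; 4.11 to 2.05 CPM). *Pex13* was nearest to *Fxr1*, an RNA-binding protein gene (0.0163; 183 to 142 CPM), and *Swt1* (0.0250; 90.7 to 69.9 CPM). For *Kdm8* the nearest were *Lgalsl* (0.0616; 1.45 to 4.65 CPM) and the mitotic kinesin *Kifc1* (0.0813; 1.80 to 5.43 CPM). For *Rpl22l1* they were *Itga8*, an integrin subunit at only 0.117 and 0.251 CPM, and *Tcp11l1* (0.0421; 0.759 to 1.46 CPM). With 4 libraries in 2 groups such likeness mainly restates a like fold change and a small spread, and it says nothing of shared control.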

How the data were processed

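B220+ splenocytes of MIZ-1WT and MIZ-1DPOZ mice were profiled by stranded, rRNA-depleted, paired-end RNA-seq, with 2 biological replicates per genotype, grouped as labelled. What the authors deposited are raw counts for each Ensembl gene, neither normalized nor pooled, made by trimming with Trimmomatic, mapping to mm10 (GRCm38) with TopHat2 (version 2.1.0 per the submitters' processing notes) and counting with HTSeq. The strand setting and Ensembl release are not given in the sources used here. Reads without a unique alignment (42.8% to 44.1%) and reads that HTSeq assigned to no feature were left out of library sizes. The share assigned to no feature was 27.18% and 25.48% in the MIZ-1WT libraries and 21.65% and 21.13% in the MIZ-1DPOZ libraries. The cause of this difference was not tested.

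Genes that reached 10 counts in 2 or more libraries were tested with edgeR version 4.0.16 in R version 4.3.3 (TMM, quasi-likelihood test, Benjamini-Hochberg adjustment over all 14554 genes, threshold 0.05). CPM is scaled by TMM, log2 CPM uses a prior count of 2, and RPKM divides CPM by the union of GENCODE exons. The procedure was also run on simulated counts, which hold no shift in cell types or sex and so do not test the scaling of these data. The p-values rest on the spread between these 2 libraries per group, with each gene's spread drawn toward that of the other genes tested. The members had from 511 to 24089 counts per library. Whether counting error or replicate spread is the larger was not tested, and a spread from 2 libraries is itself uncertain.

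The alternatives were size factors of DESeq2 in the edgeR fit, DESeq2 version 1.42.0 (Wald test), libraries scaled to 11 pan-B cell genes, no filter beyond 1 count, a minimum mean of 30 RPM (reads scaled without TMM), a replicate block, and leaving out each library; 2 other lengths for the *Rpl22* pair were added after the data were seen. Named from each list were, per direction, up to 3 genes of lowest p past the threshold, all tested genes described as MIZ-1 regulated, and the 2 nearest patterns per member. *Stx6*, *Stx16*, *Pex14* and *Pex5* were named outside this rule, for their ties to VAMP4 and PEX13. The members and lists were chosen with earlier results of these data known. Listed genes under other symbols or not matched (*Ighd*, *Vamp7* and *Stx10*) were not analysed here, and a few genes that the naming rule selects are not reported.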

Additional observations from a re-analysis of the deposited data

How the results depend on the processing

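*Rpl22*, *Rpl22l1*, *Kdm8* and *Vamp4* kept their direction and an adjusted p under 0.05 in every alternative that gave them a value; *Kdm8* gave none with the minimum mean of 30 RPM, which it did not reach. Leaving out a library moved *Rpl22* between -1.05 and -0.99, *Rpl22l1* between 0.86 and 0.93, *Kdm8* between 1.59 and 1.72, *Vamp4* between -1.09 and -1.05 and *Pex13* between -0.42 and -0.28, in fits where the lone library of a group is assumed to vary like the other group. *Pex13* lost its call without either MIZ-1WT library and with pan-B cell scaling (-0.0076). The count of members that passed was 4 or 5.

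Without a library, the genes called ranged from 2222 to 5581, against 5822 with all 4, peroxins from 1 to 8, vesicle SNAREs from 2 to 7, JmjC oxygenases from 4 to 14, cytosolic ribosomal proteins from 3 to 28 and the other MIZ-1 regulated genes from 1 to 2. With pan-B cell scaling 10 vesicle SNAREs, 3 JmjC oxygenases and 74 cytosolic ribosomal proteins passed, and 7388 genes were higher and 468 lower in place of 3076 and 2746. With the minimum mean of 30 RPM, under which 6052 genes were tested, 2746 genes passed, with 2 of 4 peroxins, 5 of 17 JmjC oxygenases, 45 of 78 cytosolic ribosomal proteins and 1 of 2 other MIZ-1 regulated genes tested, so most lists held fewer genes. The cause of the other shifts was not tested.

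With the replicate number as a block (replicate block), 4732 genes and 7 JmjC oxygenases passed, and the members were at -1.02, 0.89, 1.66, -0.36 and -1.08, in the order *Rpl22*, *Rpl22l1*, *Kdm8*, *Pex13* and *Vamp4*, with no member's call changed. Deviations of libraries with replicate number 1 correlated at -0.07 over genes, so the numbers were not taken to pair the libraries. The *Rpl22* to *Rpl22l1* ratio per length in MIZ-1DPOZ turned from under 1 to 1.21 with the coding length.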
